A study of Mus musculus with 11 samples.

Results

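The cytoplasmic ribosomal protein genes of mouse embryonic stem (ES) cells were taken by symbol: Rpl or Rps followed by a number and an optional letter, with Rpsa and the stalk genes Rplp0 to Rplp2. Symbols ending in -ps, which mark pseudogenes, and the Rps6k kinases were left out. The rule found 81 of the 12588 genes of the bulk table and 83 of the 29686 gene names of the joined single-cell tables.

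The bulk data held 3 libraries of cells in agarose microgels and 3 of cells on tissue-culture plastic, all labelled wild type, of the Rex1GFPd2 line, in 2i/LIF. This medium holds ES cells in the naive state with inhibitors of MEK and GSK3 and the cytokine LIF. Smart-seq2, a full-length cDNA method, was run on about 1000 cells per library. The single-cell data held 5 inDrop libraries, in which each transcript is counted once through a unique molecular identifier (UMI): E14 cells, also labelled wild type, grown on plastic in serum/LIF or in 2i/LIF and in gels in serum/LIF, and lines labelled as having high or low plakoglobin (Jup) overexpression from a CAG promoter, both in serum/LIF on plastic. The parent line of the overexpressing cells is not named in the labels. Jup itself reached 47.8 CPM (the UMI count scaled to a common library total; 41.5 to 54.8, 95% exact Poisson interval) in the library labelled JupHigh, 37.9 (31.1 to 45.7) for the one labelled JupLow, and from 36.7 to 46.7 over the 3 E14 libraries, so these counts do not set the labelled levels clearly apart and both Jup libraries are called by label here. All 8 ES cell markers of a list that includes Pou5f1, Nanog and Zfp42 were detected in bulk and in 4 single-cell libraries. For wild type in serum/LIF on plastic, 7 of the 8 were detected and Sox2 had no column.

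Each ribosome is built from a small subunit with the Rps proteins and a large subunit with the Rpl proteins, on a scaffold of ribosomal RNA. Many of their mRNAs begin with a run of pyrimidines (the TOP motif), through which mTOR signalling, by way of LARP1 and the 4E-BPs, sets how well they are translated. Their transcripts are short and abundant, many of their introns hold snoRNA genes, and retrotransposition has left many processed pseudogenes of them in the mouse genome.

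The start sites are shown first because these genes are known for a shared start motif. Of the 83 genes, 61 had an entry in the RefSeq promoter table (GRCm38.p6, 250 bases before to 50 after the start). The windows below run from 10 bases before the annotated start through the first 20 bases of the transcript, written 5′ to 3′ on the strand of the gene. Capitals mark CTTTCC, a pyrimidine string of the TOP kind. The first 5 are those of the 8 genes with the largest changes in bulk that had a single promoter entry. The next 4 are those of the 8 genes with the smallest changes that had one, and the last pair sets the X-linked Rpl10 beside its single-exon copy Rpl10l, the member with the largest ratio between the single-cell libraries labelled JupHigh and JupLow.
Rpl39: gctccgcctctagcgacttcttctaatcgc
Rpl28: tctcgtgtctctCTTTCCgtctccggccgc
Rps27: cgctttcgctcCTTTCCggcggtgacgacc
Rps28: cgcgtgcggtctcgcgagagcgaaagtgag
Rpl38: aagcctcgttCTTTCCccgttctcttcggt
Rpl4: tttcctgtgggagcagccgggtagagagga
Rps25: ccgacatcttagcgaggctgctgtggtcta
Rpl5: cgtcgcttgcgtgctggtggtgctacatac
Rpl15: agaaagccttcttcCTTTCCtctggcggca
Rpl10: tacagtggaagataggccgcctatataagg
Rpl10l: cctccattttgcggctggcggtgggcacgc
The windows lie at chrX:37085203-37085232 (Rpl39, - strand), chr7:4792955-4792984 (Rpl28, + strand), chr3:90213629-90213658 (Rps27, - strand), chr17:33824543-33824572 (Rps28, - strand), chr11:114668570-114668599 (Rpl38, + strand), chr9:64173377-64173406 (Rpl4, + strand), chr9:44407704-44407733 (Rps25, + strand), chr5:107900518-107900547 (Rpl5, + strand), chr14:18270967-18270996 (Rpl15, - strand), chrX:74270806-74270835 (Rpl10, + strand) and chr12:66284382-66284411 (Rpl10l, - strand).

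Within 30 bases on each side of the start, CTTTCC occurred on the gene's strand in 12 of the 61 genes (19.7%), against 920 of the 27025 genes of the promoter table (3.4%). On the opposite strand it occurred in 1 of the 61 (1.64%), against 845 of all genes (3.13%). The annotated start base itself was C in 20 of the 61 (32.8%), against 5098 of all genes (18.9%). The letters CGGAAG, the core of ETS-family sites, occurred on either strand of the 300-base promoter in 41 of the 61 (67.2%), against 5075 of all genes (18.8%). Of the genes called higher in gel in bulk, 34 of 50 held CGGAAG and 9 of 50 held CTTTCC on their own strand. Of those tested and not called, 6 of 8 held CGGAAG and 3 of 8 held CTTTCC. These are matches of letters near annotated starts, before or after them, so a CTTTCC match need not begin the mRNA as a TOP motif does. The 2 strings can share an end base.

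In bulk, ribosomal protein genes were higher in gel as a group. Of 79 tested, 65 were called higher in gel (limma with Benjamini-Hochberg adjusted p below 0.05 over all 7878 tested genes) and 0 lower, and 77 had a fold change above 0. Among all tested genes, 18.3% were called higher and 18.6% lower. The median log2 fold change of the 79 was 0.57, or 1.49-fold, against -0.02 over all tested genes, and single genes ran from -0.17 to 1.32. For 71 of the 79 all gel values lay above all plastic values, as they did for 24.4% of all tested genes, and for 0 all lay below, as for 25% of all tested genes. None of the 79 was lower at an unadjusted p below 0.05, and edgeR and DESeq2 on the recovered reads also called 0 lower, with 66 and 63 higher. The labels do not say that the replicates came from separate cultures, so p-values measure the spread between these libraries.

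The 81 genes took 4.09%, 3.97% and 3.83% of the total in gel replicates 1 to 3 and 3.08%, 3.04% and 2.51% in plastic replicates 1 to 3. The groups did not overlap: the mean share was 3.97% ± 0.13 (SD, n = 3) in gel and 2.87% ± 0.32 (SD, n = 3) in plastic. Plastic replicate 3 was the lowest of the 6 libraries for 76 of the 81 genes and was also the shallowest, with 637235 recovered reads. The gel libraries were nearly as shallow, with 866721, 808903 and 707718 reads, while plastic replicates 1 and 2 had 2390575 and 2583256. With libraries thinned to the shallowest, 61 genes were called higher and 0 lower, with a median log2 fold change of 0.56. Without plastic replicate 3, 52 genes were called higher and 1 lower, and the median log2 fold change was 0.45. Its part in the result beyond these values was not tested. The values are relative to each library, and in bulk samples a change in cell types and a change in RNA per cell cannot be told apart.

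**Figure D1:**
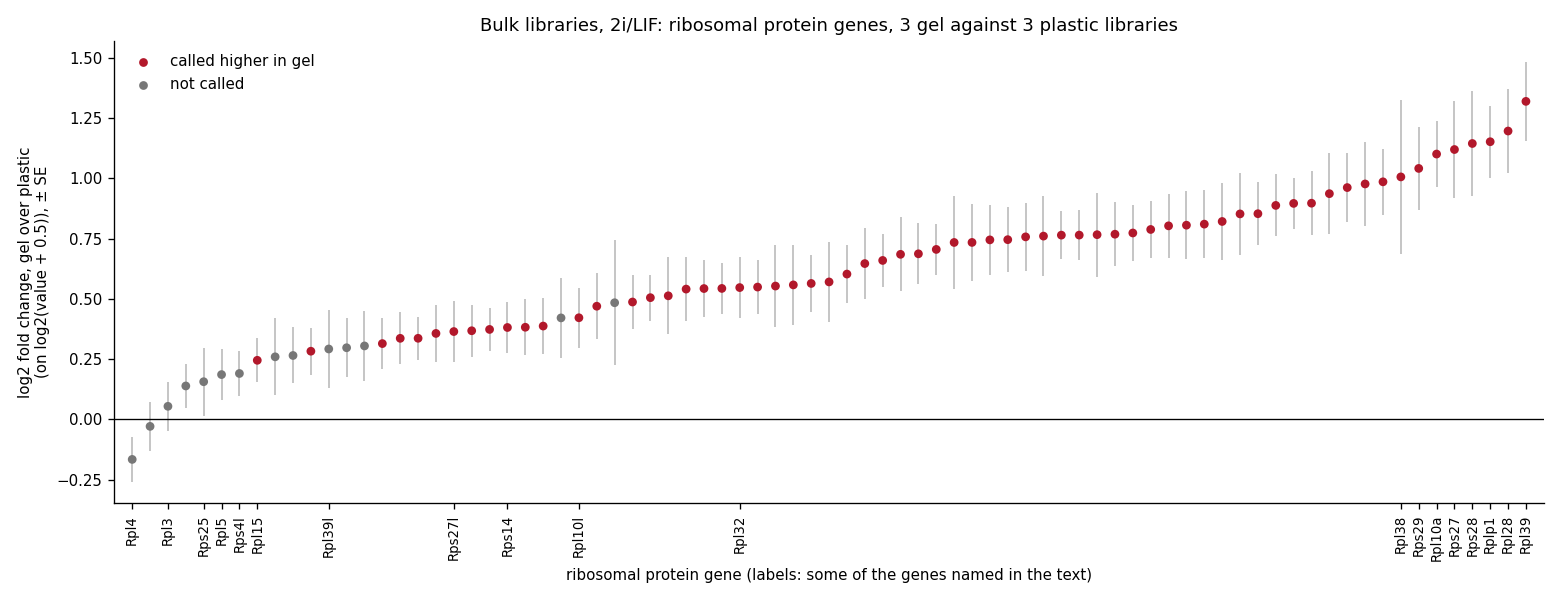
Log2 fold change of each of the 79 tested ribosomal protein genes in bulk, gel over plastic, on log2(value + 0.5), with standard errors from limma (3 libraries per group). Genes are ordered by change; 65 points (red) were called higher in gel, 14 (grey) were not called, and 2 points lie below 0, the lowest of them Rpl4. Some of the genes named in the text are labelled.

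The 8 largest changes were those of Rpl39, Rpl28, Rplp1, Rps28, Rps27, Rpl10a, Rps29 and Rpl38, which were the 8 genes at 2-fold or more. This ranking counts each gene's own entry, and it shifts when pseudogene copies are added, as given below. The values that follow are the deposited values, in which 1 read is worth 0.391 to 1.52. Rpl39 lies on X and codes for a very small protein in the wall of the tunnel through which the nascent chain leaves the ribosome. Its values were 228, 249 and 198 in gel and 102, 107 and 65.3 in plastic. All gel libraries lay above all plastic libraries, and gel exceeded plastic by 1.32 ± 0.16 (SE) on the log2 scale (limma adjusted p = 1.31e-05).

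Rplp1 and Rplp2 are the acidic stalk proteins that, anchored by Rplp0, recruit the elongation factor GTPases. Rplp1 measured 599, 603 and 529 in gel and 304, 308 and 185 in plastic, without overlap (log2 fold change 1.15 ± 0.15 SE, adjusted p = 1.94e-05, limma). Rplp2 changed by 0.77 and Rplp0 by 0.31, so all 3 stalk genes were called, with Rplp0 the least changed. Rplp0 measured 1068, 1213 and 1163 in gel against 1037, 965 and 782 in plastic, where its highest plastic library came close to its lowest gel library.

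Rpl28, a large subunit protein, measured 133, 118 and 85.2 in gel and 50.3, 49.3 and 44.0 in plastic (log2 fold change 1.20 ± 0.17 SE). Rpl10a, the protein of the L1 stalk, measured 319, 285 and 286 in gel and 165, 143 and 111 in plastic (1.10 ± 0.14 SE). Both were separated between the groups in every library. Rpl38, a subunit protein known for its part in the translation of Hox mRNAs, was far lower and noisier, at 24.8, 30.7 and 30.2 in gel and 19.9, 17.6 and 7.59 in plastic. Its change of 1.01 ± 0.32 (SE) on the log2 scale, with a limma adjusted p of 0.0190, was the least certain of the 8. The call was lost without plastic replicate 3 (0.59, adjusted p = 0.0979), without gel replicate 2 (adjusted p = 0.0610), without gel replicate 3 (adjusted p = 0.0523) and by DESeq2 (adjusted p = 0.0807).

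Among the small subunit genes, Rps27, Rps28 and Rps29 led. These code for short proteins of the small subunit. Rps27 measured 192, 180.5 and 202 in gel against 116, 107 and 54.7 in plastic, and its log2 fold change was 1.12 ± 0.20 (SE). Rps28 measured 111, 72.4 and 93.4 against 51.1, 48.5 and 27.3, a log2 fold change of 1.14 ± 0.22 (SE). Rps29 measured 151, 169 and 169 against 95.2, 92.0 and 56.2, a log2 fold change of 1.04 ± 0.17 (SE). In each of them plastic replicate 3 was the lowest library, and its distance from the other plastic libraries was larger than the spread in gel for Rps27 and Rps29.

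The 14 genes not called included several of the most abundant by their own entry. The order per kilobase of transcript was taken without -ps copies, of which Rpl4 had 0 and other genes several. Rpl4, a large subunit protein with an extension into the exit tunnel, came first in plastic, at 1930 ± 189 per kilobase (SD, n = 3). It measured 2476, 2923 and 2535 in gel and 3070, 3195 and 2641 in plastic. The groups overlapped, and the change was -0.17 ± 0.09 (SE) on the log2 scale (limma adjusted p = 0.176). Without plastic replicate 3 it was called lower in gel, at -0.25 with an adjusted p of 0.0258, the 1 call in that direction in any setting tried.

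Rpl3, whose loop reaches the peptidyl transferase centre, measured 473, 430 and 416 in gel and 426, 456 and 389 in plastic. Its log2 fold change of 0.05 ± 0.10 (SE) fell to -0.01 without plastic replicate 3. Rps25, a small subunit protein, changed by 0.16 ± 0.14 (SE) and Rpl5 by 0.19 ± 0.11 (SE). In all 3 of these gel and plastic values overlapped, and Rps25 turned to -0.01 without plastic replicate 3.

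Rpl15 had the largest adjusted p of the called genes, with gel higher by 0.25 ± 0.09 (SE) on the log2 scale (limma adjusted p = 0.0421). Its 3 gel values of 989, 993 and 981 lay above the plastic values of 860, 884 and 761. The call was lost under TMM scaling (adjusted p = 0.0869), with no filter on low values (adjusted p = 0.0609) and without any library other than plastic replicate 2 (adjusted p 0.0714 to 0.0929).

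Rpl5 and Rpl11 join the 5S ribosomal RNA in 1 particle, which also binds Mdm2. They differed in the size of their change: Rpl5 measured 779, 864 and 727 in gel and 765, 726 and 598 in plastic, with overlap, while Rpl11 measured 191, 179 and 155 against 116, 116 and 83.5, without overlap (log2 fold change 0.74 ± 0.15 SE, called). The difference between the 2 genes was not tested. Among the 5 genes highest per kilobase in plastic, where Rpl4 came first, Rps14 changed by 0.38 ± 0.11 (SE) and Rpl32 by 0.55 ± 0.13 (SE), both called. Rps6, the substrate of S6 kinase, changed by 0.28 ± 0.10 (SE, called).

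Both subunits were represented among the calls. In the small subunit 27 of 32 tested genes were called higher, with a median log2 fold change of 0.65, and in the large subunit without the stalk 35 of 44, with a median of 0.56. All 4 X-linked genes, Rpl10, Rpl36a, Rpl39 and Rps4x, were called higher, at 0.49 to 1.32. Of 29 genes with a snoRNA gene inside them in the GENCODE M21 annotation, 21 were called, with a median of 0.55, and of 50 without one 44 were called, with a median of 0.67. Rpl24 and Rpl29 were too low to be tested, at a mean of 10.1 and 9.79 per kilobase in plastic.

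Length ordered the genes in part. The 40 tested genes with a transcript of 855 bases or fewer, the median of the group, had a median of 0.71 on the log2 scale, 36 of them called, and the 39 longer ones 0.51 with 29 called. Across the 79 genes Spearman's rho between change and transcript length was -0.33. The genes share the 6 libraries and are not independent replicates. Other protein-coding genes of at most 855 bases also leaned toward gel: 121 of 275 were called higher and 11 lower, with a median of 0.40, against 960 higher and 1333 lower of 6565 longer ones, with a median of -0.08. The part of transcript length in the ribosomal protein result was not tested beyond these values.

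**Figure D2:**
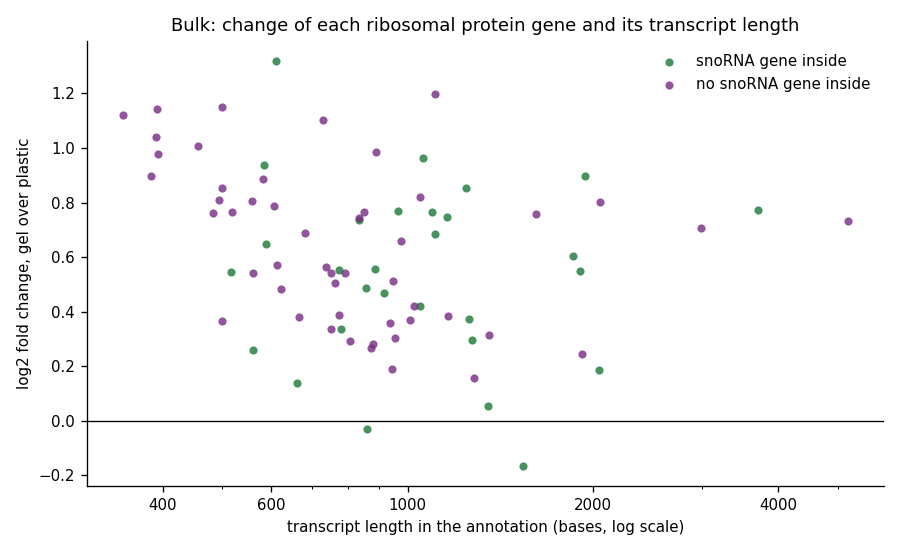
Log2 fold change in bulk, gel over plastic, of the 79 tested ribosomal protein genes against the length of their transcript (log scale), coloured by whether a snoRNA gene lies inside the gene. Genes of 855 bases or fewer have a median of 0.71 and longer ones 0.51; the 2 genes below 0 both hold a snoRNA gene.

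Pseudogenes that carry the names of these genes moved with them. Of 121 -ps entries in the bulk table, 89 were tested, 74 were called higher in gel and 0 lower, with a median log2 fold change of 0.70. They took 3.41% ± 0.14 (SD, n = 3) of the gel total and 2.29% ± 0.28 (SD, n = 3) of the plastic total. Reads of a gene and of its near-identical copies can be split by the counting, so single values of members with copies are uncertain. With the copies added to their parents, gel lay above plastic in every library for 73 of the 81 genes and below for 0. The median log2 ratio of group means was 0.55 for the 81 genes alone and 0.60 with copies. By this ratio the copies lowered Rpl38 from 0.90 to 0.60 and Rpl10a from 1.08 to 0.95. They raised Rpl30 from 0.55 to 1.07 and Rps12 from 0.95 to 1.18.

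Some near-copies with their own symbols were called and others were not, and differences between them were not tested. Rpl10l, a single-exon autosomal copy of the X-linked Rpl10 known from the testis, measured 284, 303 and 308 in gel and 229, 259 and 185 in plastic (log2 fold change 0.42 ± 0.12 SE, adjusted p = 0.0124, limma). All gel values were above all plastic values, but without plastic replicate 3 its adjusted p was 0.0508, and 0.138 with libraries thinned to the shallowest. Rps27l, a p53-responsive relative of Rps27, changed by 0.36 ± 0.13 (SE, adjusted p = 0.0319, limma), and by 0.20 with an adjusted p of 0.151 without plastic replicate 3. Rpl39l (0.29), Rps4l (0.19), Rpl22l1 (0.09) and Rpl7l1 (-0.09) were not called, while Rpl36al was (0.57). Rps4l and Rpl6l match the symbol rule but are annotated in GENCODE M21 as processed pseudogenes, Rps4l as a transcribed one.

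The other genes of the translation machinery did not follow as 1 block. The counts here and in the next paragraph stand beside 18.3% called higher and 18.6% lower among all tested genes. Of 76 mitochondrial ribosomal protein genes tested, 13 were called higher, near that share, and 0 lower. Their median log2 fold change was 0.15, and the largest were Mrps16 (0.83), Mrps6 (0.72) and Mrpl52 (0.66). Of 24 translation factor and other TOP mRNA genes, 9 were called higher and 4 lower, with a median of 0.21. The poly(A)-binding protein gene Pabpc1 rose by 1.34, Eif3f by 1.15 and Tpt1 by 1.02, while the snoRNA host Gas5 fell by 0.64, the chaperonin gene Cct5 fell by 0.45 and Eif3e fell by 0.30.

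Of 34 ribosome biogenesis genes, 8 were called higher and 9 lower, with a median of -0.08. The methyltransferase gene Fbl rose by 1.34, Nop10 by 1.04 and the RNA polymerase I subunit gene Polr1a by 0.74. Tsr1 fell by 1.13, Gnl2 by 0.74 and the polymerase I factor Rrn3 fell by 0.69. In the list of mTOR, MYC and translation control, 5 of 16 were called higher and 2 lower: Eif4ebp2 (3.05, from a mean of 1.74 in plastic to 15.3 in gel), which represses cap-dependent translation, Tsc2 (1.55), which restrains mTORC1, and Larp1 (1.46) rose most, and the S6 kinase gene Rps6kb1 (-0.60) and the cap-binding Eif4e (-0.43) fell. Of 8 tested relatives outside the rule 5 were called higher, led by the retrogene Rps27rt (1.01), the ubiquitin-like fusion Fau (0.65) and Rpl36al (0.57), and 0 lower. Markers moved in bulk too. Of the 8 ES cell markers 4 were called higher in gel, Utf1 (1.63), Sox2 (1.51), Pou5f1 (1.31) and Dppa5a (0.53), and 3 lower, Sall4 (-0.80), Nanog (-0.34) and Zfp42 (-0.32). Of the 8 endoderm markers only Lama1 was in the table, and it was called higher in gel (0.99), averaging 24.7 against 12.5 in plastic. Of the 7 fibroblast markers 0 were in the table. The part of other cell types in the ribosomal protein result was not tested.

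In the single cells, ribosomal protein genes took 6.43% to 9.62% of all UMIs. Cells were barcodes with at least 1000 UMIs, 112 to 2889 per library, with a median of 1731.5 to 2465 UMIs. With 1 library per condition there is no replicate check, and intervals (95%, exact) cover counting error only. The share was 9.62% (9.60 to 9.64) for wild type in 2i/LIF, 8.90% (8.79 to 9.02) in serum/LIF gel, 7.37% (7.33 to 7.40) in serum/LIF on plastic, 6.55% (6.52 to 6.58) for JupLow and 6.43% (6.40 to 6.45) for JupHigh. Every cell held UMIs of these genes, and 0 cell barcodes were shared between libraries. Each share counts the ribosomal protein genes that its own table holds. With UMIs these were 80 in wild-type serum/LIF on plastic and 82 or 83 in the others. Rpl13 had no column in the wild-type serum/LIF plastic table and 861 CPM in 2i/LIF, and Rpl23a had 13.9 against 1863 CPM. Shares over the same genes in every table were not computed. Over every deposited barcode JupLow had 10.9%, above the 10.7% of 2i/LIF and the 7.35% of JupHigh, so the order of the libraries rests on the minimum of 1000 UMIs. With each cell thinned to 1000 UMIs the pooled share was 6.84% in JupLow and 6.43% in JupHigh. The median share per cell had the other order, at 6.07% in JupLow and 6.92% in JupHigh, and it was 7.65% in wild-type serum/LIF on plastic, 9.55% in gel and 10.2% in 2i/LIF.

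**Figure D3:**
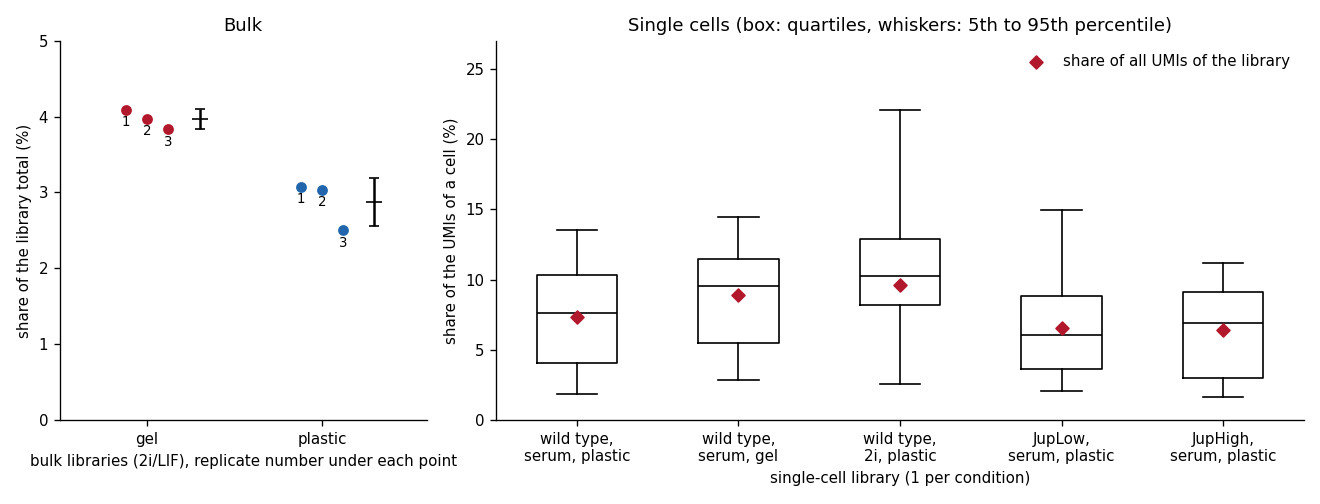
Left, share of the library total from the 81 ribosomal protein genes in each bulk library, with mean and SD beside the points; the gel libraries (3.83% to 4.09%) lie above the plastic libraries (2.51% to 3.08%). Right, share of each cell's UMIs from these genes in the 5 single-cell libraries (boxes: quartiles, whiskers: 5th to 95th percentile of cells). Diamonds give the share of all UMIs, at 9.62% in 2i/LIF and 6.43% to 8.90% in the other libraries among cells of at least 1000 UMIs. Over every deposited barcode JupLow (10.9%) lay above 2i/LIF (10.7%). Single-cell shares count the genes each table holds, 80 with UMIs in wild-type serum/LIF on plastic and 82 or 83 in the others.

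Within every library the share differed widely between cells and was low in cells rich in mitochondrially encoded transcripts. In cells with under 10% mitochondrial UMIs the median share was 9.37% for wild type in serum/LIF on plastic, 10.9% in gel, 10.7% in 2i/LIF, 8.08% for JupLow and 8.64% for JupHigh. In cells with 20% or more it was 2.63%, 3.61%, 2.80%, 3.05% and 2.42% in the same order. Such cells were 24.3%, 27.7%, 12.6%, 32.4% and 35.02% of the libraries. Spearman's rho between the 2 shares of a cell ran from -0.78 to -0.53, and from -0.73 to -0.48 with mitochondrial UMIs taken out of the denominator. The 2 shares come from the same cells and depth. The part of the mitochondrial share in the differences between libraries was not tested beyond the values given here.

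The 2i/LIF library held many cells with a high share. Of its 2889 cells 588 (20.4%) had a share of 15% or more, with a median of 20.7% and quartiles of 19.3% and 22.1%. This limit was chosen after the values were seen, and no gap lies at it: these cells began at 15.03% and the rest reached 14.9%. The 588 cells were shallow, with a median of 1164 UMIs against 3156 in the rest. The other libraries held 5 to 56 such cells, or 0.279% to 4.67%. Barcodes under 500 UMIs, which were not taken as cells, also had high shares where there were enough of them: 11.4% in wild-type serum/LIF on plastic, 10.8% in gel, 14.6% in JupLow and 11.2% in JupHigh. The 2i/LIF table had 1 such barcode.

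**Figure D4:**
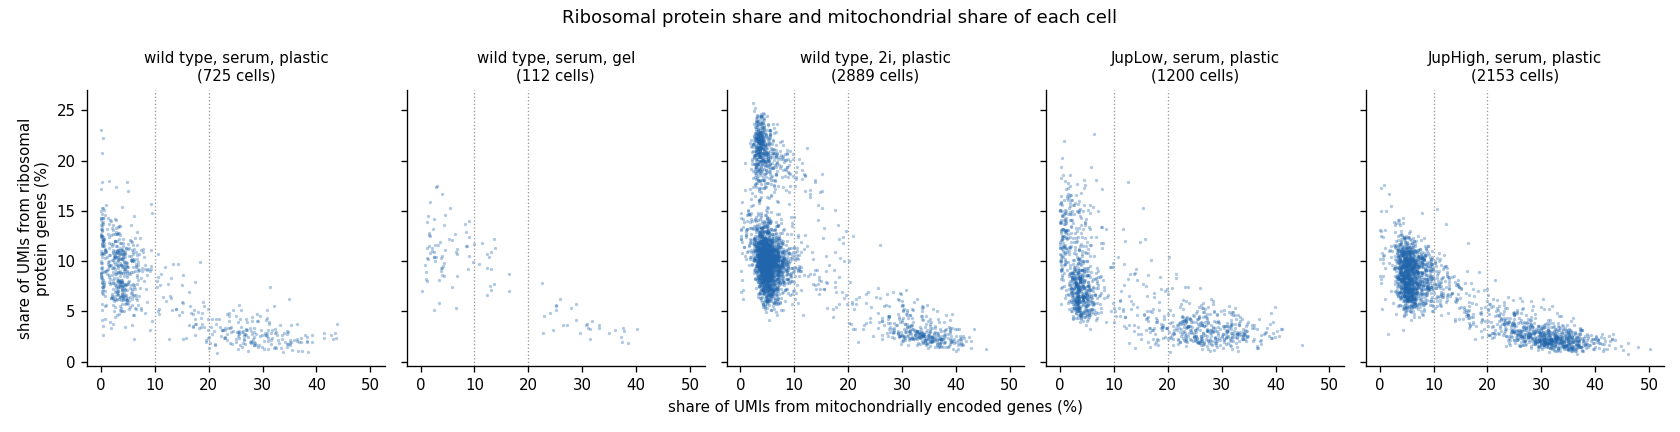
Each point is 1 cell: its share of UMIs from mitochondrially encoded genes (x) and from ribosomal protein genes (y), in the 5 single-cell libraries, with dotted lines at 10% and 20% mitochondrial UMIs. Cells at 20% or more lie low in every panel (medians 2.42% to 3.61%), and 588 cells of the 2i/LIF panel lie at a ribosomal protein share of 15% or more.

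The leading genes were alike in all 5 libraries. Rps23, at the decoding centre, Rpl23 and Rpl12, the latter at the base of the stalk, filled the first 3 places in each. This order counts each gene's own entry without -ps copies, of which the bulk table had 0 for these 3 genes and several for others. Rps23 ran from 2255 CPM in JupLow to 4258 in 2i/LIF, Rpl12 from 2326 in JupLow to 3435 in 2i/LIF and Rpl23 from 2545 in JupHigh to 3185 in 2i/LIF. The first 5 genes held 16.2% to 17.2% of the ribosomal protein UMIs. Over the 79 genes with UMIs in all tables, Spearman's rho of UMI counts was 0.95 to 0.98 between libraries other than wild-type serum/LIF on plastic and 0.89 to 0.91 with that library.

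The wild-type serum/LIF plastic table stood apart gene by gene. It had no column for Rpl13, Rps10 and Rpl32l. Rpl23a stood at 13.9 CPM (28 UMIs) there against 1151 to 1863 CPM in the other 4 tables, and Rpl24 at 334 against 48.7 to 93.1. Rpl13a was at 862 CPM against 319 to 451 elsewhere, and among the relatives Rpl36al was at 294 against 12.7 to 36.1 and Rpl22l1 at 32.2 against 187 to 483. Rpl23a was the highest and Rpl24 and Rpl13a the lowest ribosomal protein genes at a mean of 50 CPM or more in all 4 comparisons with that library, and a difference in how its reads were assigned to genes cannot be told apart from the condition. The medians below rest on all members and not on these genes alone.

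In wild-type cells on plastic, 69 of 80 ribosomal protein genes were higher in 2i/LIF than in serum/LIF and 11 lower, with a median log2 ratio of 0.35. Of the 79 at a mean of 20 CPM or more, 19 were at least 1.5-fold higher and 2 at least 1.5-fold lower, against 16.3% and 20.3% of all 6602 genes at that level. Small subunit genes had a median of 0.41 and large subunit genes without the stalk 0.32. Among genes at a mean of 50 CPM or more, the highest apart from Rpl23a were Rpl10l (292 against 35.2 CPM), Rpl30 (1005 against 540.2), Rps29 (1743 against 947) and Rps20 (2099.7 against 1157). Rpl39l, just below that level, stood at 78.5 against 20.8 CPM, a log2 ratio of 1.91. The lowest apart from Rpl24 and Rpl13a were Rpl5 (-0.18, interval -0.25 to -0.12), Rpl4 (-0.16, interval -0.21 to -0.11) and Rps2 (-0.11, interval -0.23 to 0.01).

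The size of this difference moved with the cells counted. The median was 0.19 over cells with 2000 UMIs or more, 0.21 over cells with under 10% mitochondrial UMIs, 0.11 over every deposited barcode and 0.54 with each cell thinned to 1000 UMIs. It was above 0 in each. Primitive endoderm markers differed the other way: the 7 genes with a column in both tables (all of the list but Gata6, which had none in 2i/LIF) summed to 806 CPM in serum/LIF and to 40.1 CPM in 2i/LIF, and all 7 were lower in 2i/LIF. The 7 ES markers with a column in both (all but Sox2) summed to 2199 CPM in serum/LIF and 3026 CPM in 2i/LIF. Of these 4 were higher in 2i/LIF and 3 lower: Utf1 (129 against 450.5 CPM), Tdgf1 (129.8 against 291 CPM) and Sall4 (255 against 284 CPM). The part of these cells in the difference was not tested.

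In serum/LIF, 60 of 79 genes were higher in gel than on plastic and 19 lower, with a median log2 ratio of 0.27. Of 78 at 20 CPM or more, 5 were 1.5-fold higher and 2 lower, against 14.3% and 18.5% of 6463 genes. Among the 5 highest at a mean of 50 CPM or more, beside Rpl23a, were Rpl32 (868 CPM from 205 UMIs against 511), Rpl10 (821 against 508) and Rps13 (499.6 against 328). The gel library had 112 cells, and over every deposited barcode, where cells and near-empty barcodes are pooled, the median was 0.01. Endoderm markers summed to 186 CPM in gel against 870 on plastic. Their part in the ratio was not tested.

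The bulk and single-cell gel comparisons share no library but differ in medium, line and method. Of 77 genes with a value in both, 60 were higher in gel in both, 15 only in bulk, 0 only in single cells and 2 in neither. The sizes did not run together: Spearman's rho across genes was 0.05, and the 20 genes with the largest bulk change had a median single-cell log2 ratio of 0.20 against 0.17 for the 20 with the smallest. Rpl32, among the 5 highest in the single-cell gel library, was at 0.55 in bulk, and Rps29, at 1.04 in bulk, had a single-cell log2 ratio of -0.20 (interval -0.42 to 0.01).

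Both Jup libraries stood below wild type in serum/LIF, and these comparisons share that control. JupHigh was lower for 65 of 80 genes, with a median log2 ratio of -0.26, and JupLow for 64 of 79, with a median of -0.24. At 20 CPM or more, 3 of 79 genes were 1.5-fold higher and 7 lower in JupHigh, against 10.4% and 23% of 6423 genes. In JupLow 1 of 78 was higher and 4 were lower, against 7.72% and 10.4% of 6595 genes. Over all genes at that level the median log2 ratio was -0.16 for JupHigh and 0.00 for JupLow. TMM scaling brought the JupHigh median to -0.10 and the JupLow median to -0.20, and in cells with under 10% mitochondrial UMIs they were -0.15 and -0.23. Over every deposited barcode JupLow turned to 0.09.

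Rps2, a small subunit protein at the mRNA entry, was among the 5 lowest in both, at 225 CPM in JupHigh and 219 in JupLow against 356 in wild type. Rps26, which touches mRNA at the exit channel, was at 471 CPM in JupHigh, 666 in JupLow and 785 in wild type. Rpl19 was at 264 CPM in JupLow against 447 in wild type, and Rpl30 was higher in both, at 649 and 682 against 540.2 CPM. Endoderm markers summed to 94.6 CPM in JupHigh and 121 CPM in JupLow, against 870 in wild type, with all 8 detected in each. Their part in these ratios was not tested.

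Between the libraries labelled JupHigh and JupLow, ribosomal protein genes differed little and without a stable direction. Of 82 genes 37 were higher and 45 lower in JupHigh, with a median log2 ratio of -0.01, while the median over all 6403 genes at 20 CPM or more was -0.12. Of 81 at that level 2 were 1.5-fold higher and 0 lower, against 6.25% and 16% of all genes. The median was above 0 with 2000 UMIs or more per cell (0.06), under TMM scaling (0.10), without mitochondrial genes in the total (0.05) and in cells with under 10% mitochondrial UMIs (0.06). It was -0.56 over every deposited barcode, where JupLow held 4405 barcodes under 500 UMIs and JupHigh 1343.

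The 2 genes past 1.5-fold between these libraries were the near-copies Rpl10l and Rpl39l. Rpl10l was at 109 CPM (99.4 to 119) in JupHigh and 34.7 CPM (28.3 to 42.3) in JupLow, a log2 ratio of 1.65 (1.34 to 1.98). Rpl39l was at 39.4 CPM (33.7 to 45.8) and 17.0 CPM (12.6 to 22.5), a log2 ratio of 1.21 (0.75 to 1.70). The parent genes differed far less: Rpl10 was at 426 and 438 CPM and Rpl39 at 697 and 658 CPM. Among the other leading genes Rpl12 (0.27), Rps27 (0.24), Rpl10a (0.23) and Rps25 (0.22) were higher in JupHigh. Lower in JupHigh were Rps26 (-0.50), Rpl29 (-0.42), Rpl6 (-0.39), Rps27l (-0.37) and Rpl27 (-0.36). All 9 of these intervals left out 0, but the genes were picked by these same ratios. The intervals cover counting error in 1 library per label.

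Across the 5 libraries Rpl10l and Rpl39l had the same order at the top. Rpl10l was highest in 2i/LIF, at 292 CPM (281 to 304), then JupHigh at 109. Wild type in serum/LIF on plastic at 35.2 (27.5 to 44.4), JupLow at 34.7 and gel at 25.4 (9.32 to 55.3, from 6 UMIs) had overlapping intervals. Rpl39l was at 78.5 CPM (72.5 to 84.7) in 2i/LIF and 39.4 in JupHigh, then 20.8 in serum/LIF on plastic and 17.0 in JupLow, again with overlap, and had 1 UMI in gel. Their parents did not share this order: Rpl10 was highest in gel, at 821 CPM (709.8 to 945), and Rpl39 was at 1016 CPM (892 to 1153) in gel and 896 (876 to 917) in 2i/LIF, with overlapping intervals. In bulk 2i/LIF, Rpl10l stood at 219.6 ± 36.5 (SD, n = 3) per kilobase in plastic and Rpl10 at 518 ± 59.8 (SD, n = 3). Reads of Rpl10l and Rpl10 may be split by the counting, since the sequences are close. Rpl10 also has 4 -ps copies: its own entry averaged 442.5 in plastic, against 3165 with these copies added. The values per kilobase therefore do not give the level of Rpl10l relative to Rpl10. Rps27l, which is expressed like a regular member, ran from 841 CPM in JupHigh to 1317 in gel.

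**Figure D5:**
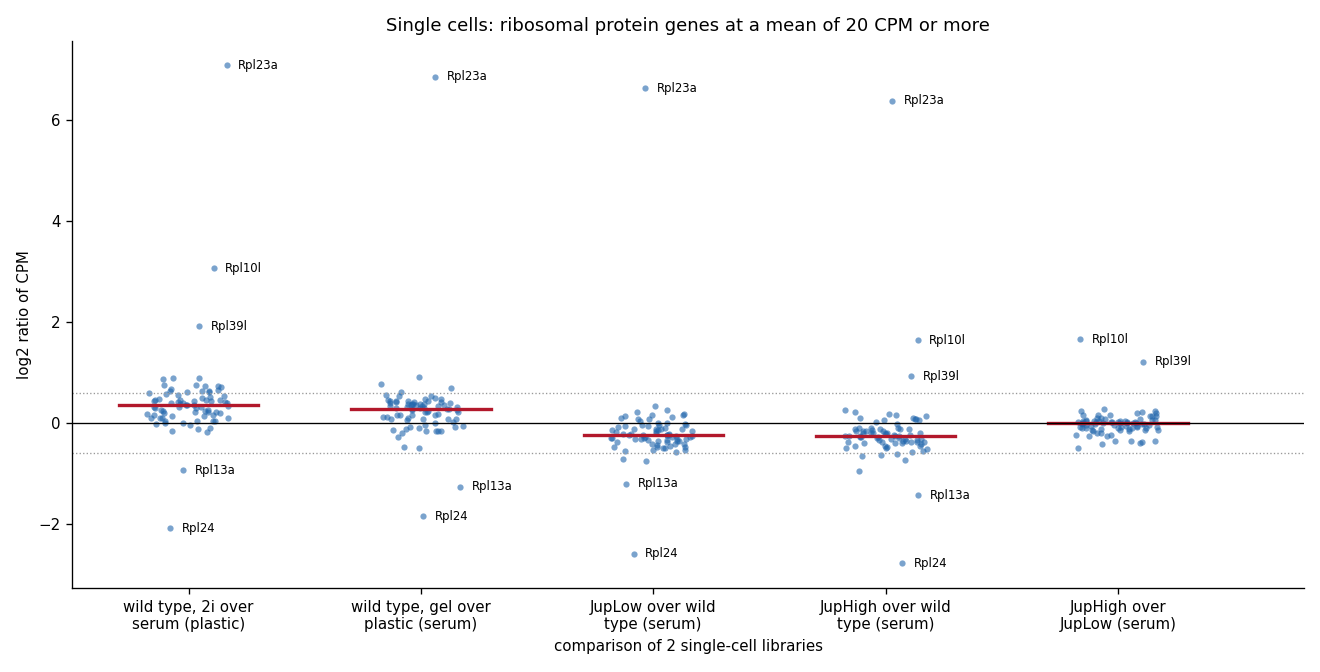
Log2 ratio of CPM of each ribosomal protein gene at a mean of 20 CPM or more in 5 comparisons of single-cell libraries, with the median as a red bar and dotted lines at 1.5-fold. Medians lie at 0.35, 0.27, -0.24, -0.25 and -0.01 from left to right; Rpl23a, Rpl24 and Rpl13a stand far out in the 4 comparisons with wild type in serum/LIF on plastic but not in the last, and Rpl10l stands out in 3.

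In the single cells, mitochondrial ribosomal protein genes had a median log2 ratio of 0.17 in 2i/LIF over serum/LIF, 0.02 in gel over plastic, -0.10 and -0.12 in JupHigh and JupLow over wild type, and -0.01 between the Jup libraries. Pseudogenes of ribosomal proteins had medians of 0.30, 0.17, -0.47, -0.33 and -0.12 in the same order. Ribosome biogenesis genes had -0.09, 0.03, 0.11, 0.00 and 0.05. The ratios with wild type in serum/LIF share 1 control library.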

How the data were processed

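The bulk values are a signal in which the authors' deposited gene counts had been divided by 1 factor per library; 100% of values were whole multiples of 1 read within 0.01. The single-cell tables hold UMI counts per gene and barcode as deposited by the authors. FastQC, STAR, featureCounts, DESeq2 and Scanpy and the builds mm10 and GRCm38 are named in the submitters' processing notes, per the labels, with no versions. A count test had been planned; limma took its place, since these values are no raw counts.

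Bulk values were tested on log2(value + 0.5) with limma 3.58.1 (R 4.3.3, trend, filterByExpr), with edgeR 4.0.16 and DESeq2 1.42.0 on recovered reads as alternatives. In simulated data where 200 of 7878 genes were changed, the limma test recovered 33.5% at 1.5-fold, 74% at 2-fold and 98.5% at 4-fold. The data themselves had 2906 genes called (36.9%), far more than 200, so these rates need not hold there. The 6 libraries held 637235 to 2583256 recovered reads. No 2 replicates agreed within sampling noise (chi-square per degree of freedom 1.58 to 2.20). Columns of plastic libraries are named with both substrates, and for 1 plastic library the title and the description give different replicate numbers; the title was followed. The labels put no shared culture or day behind the replicate numbers.

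Cells were barcodes with at least 1000 UMIs, without 8 or more G at both ends; columns without a gene name were left out, no doublet caller was run, and 1 incomplete row of the gel table was left out. Intervals are exact Poisson for CPM and Clopper-Pearson for shares, at 95%, and cover counting error only. Named genes were, in bulk, the 8 largest and 8 smallest changes, the 5 highest per kilobase in plastic and the listed paralogs, and in single cells the 5 highest and 5 lowest ratios at a mean of 50 CPM or more; other lists gave the 3 largest changes in each direction. Some genes that this rule names are not reported here. Rpl11, Rps6, the other stalk genes, the X-linked genes, Rpl6l and the ES cell markers were named after their values were seen. The members and lists were chosen with earlier results of these data known. Annotation was GENCODE M21, and promoters came from RefSeq. The alternatives on cells under 10% mitochondrial UMIs and on added pseudogene UMIs were chosen after seeing the data.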

Additional observations from a re-analysis of the deposited data

How the results depend on the processing

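In bulk, leaving out 1 library at a time gave 52 to 66 members called higher, 0 to 1 called lower and a median log2 fold change of 0.449 to 0.656; the low end of both the members called higher and the median was without plastic replicate 3. Genes called in all ran from 2317, without plastic replicate 1, to 2785, without gel replicate 3. Of the 65 called higher, 49 were called in all 6 of these fits. Asking for a log2 fold change of 1 or more left 8 members and 727 genes, by construction. The replicate block gave 66 members higher, 2988 genes and a median of 0.571. Same-numbered libraries showed no shared deviation (correlations -0.052, 0.016 and 0.024). With 3 libraries per group and 1 plastic replicate number in doubt, this cannot exclude a pairing. Among the genes named, Rpl3 (-0.0061) and Rps25 (-0.015) reversed without plastic replicate 3, and Rpl22l1 without gel replicate 2 (-0.10). Over the fits without 1 library the values ran from -0.0061 to 0.110 for Rpl3, -0.015 to 0.277 for Rps25 and -0.10 to 0.236 for Rpl22l1. The cause was not tested.

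In single cells the medians of log2 ratios are given in the order JupHigh over JupLow, 2i over serum, gel over serum, JupHigh over serum and JupLow over serum, as -0.011, 0.349, 0.269, -0.258 and -0.242 in the reported setting. Every deposited barcode gave -0.560, 0.109, 0.0102, -0.470 and 0.0864. A minimum of 2000 UMIs gave 0.056, 0.194, 0.282, -0.217 and -0.266. Leaving out barcodes above 3 times the median gave 0.425, 0.334, -0.188 and -0.188 for the last 4. TMM gave 0.105, 0.440, 0.238, -0.0993 and -0.199, and thinning to 1000 UMIs gave -0.0777, 0.544, 0.182, -0.288 and -0.189. Leaving mitochondrial genes out of the total gave 0.045, 0.339, 0.278, -0.187 and -0.227. Cells under 10% mitochondrial UMIs gave 0.0554, 0.207, 0.193, -0.151 and -0.231. Adding pseudogenes gave -0.0353 for the first, 0.359 for the second and -0.230 for the last.

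Shares of UMIs, in the order JupHigh, JupLow, 2i, gel and serum, were 7.35%, 10.9%, 10.7%, 10.1% and 9.75% over every barcode, and 7.54%, 7.39%, 10.7%, 10.003% and 8.23% without mitochondrial genes in the total. With the total taken over genes with UMIs in all 5 tables, but every member of each table still counted, they were 6.79%, 6.91%, 10.2%, 9.35% and 7.76%. In cells under 10% mitochondrial UMIs they were 8.62%, 8.23%, 10.9%, 10.7% and 9.23%, and with pseudogenes 7.99%, 8.28%, 12.3%, 11.3% and 9.23%. With 2000 UMIs or more, JupLow, 2i, gel and serum gave 6.26%, 8.44%, 9.08% and 7.14%, so gel lay above 2i. Without barcodes above 3 times the median, 2i, gel and serum gave 9.70%, 9.04% and 7.06%. Thinned to 1000 UMIs, JupLow, 2i and serum gave 6.84%, 11.2% and 7.48%. The cause of these shifts was not tested.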
